A study of Mus musculus with 8 samples.

Results

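Collagen chains were followed in C2C12 myotubes, the fused muscle cells that this mouse myoblast line forms when serum is withdrawn. The members are all non-control array probes whose gene name in the scanner files is Col, a number, a and a number. This gave 67 of 55681 probes, for 43 genes. Of these, 37 probes for 29 genes had signal well above background throughout 1 group or both (4 of 4 arrays) and were tested, and 14 genes were not. In all, 13580 genes were tested on these arrays. Cells had been transfected with control siRNA (4 samples) or with siRNA against macroH2A1.1 (4 samples), and were harvested at day 4 of differentiation. MacroH2A1.1 is one of the forms of the histone variant macroH2A1 that alternative splicing gives. One label describes the treated cells as knockout cells, but titles and design speak of siRNA, and that reading is used. All samples are of 1 line and are labelled biological replicates; whether cultures were separate is not stated, and the p-values then cover the spread among these 8 samples only.

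Collagens are matrix proteins whose chains wind around each other into a rope-like helix, which requires glycine in a repeating Gly-X-Y pattern. Fibrillar chains form the tensile fibres of connective tissue, type IV chains form the sheet of the basement membrane that wraps each muscle fibre, and type VI chains form beaded filaments next to it. FACIT chains, which sit on fibrils, and transmembrane chains complete the family. In muscle, fibroblasts make most fibrillar collagen, and myogenic cells in culture also make several types.

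The repeat that defines the family can be read in the array itself. A pair of the probes holds an open reading frame with glycine codons at the Gly-X-Y spacing from end to end, and they are shown for that reason. Capitals mark the glycine codons, 6 in each probe of 60 bases, and both sequences are from the array files (mm9, plus strand).
Col25a1, chr3:130270497-130270556: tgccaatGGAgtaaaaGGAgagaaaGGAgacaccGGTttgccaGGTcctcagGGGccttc
Col15a1, chr4:47283786-47283845: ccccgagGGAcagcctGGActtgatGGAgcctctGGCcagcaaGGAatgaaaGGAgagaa
The Col25a1 probe was above background on 3 control and 4 macroH2A1.1 siRNA arrays and is described with the transmembrane chains. The Col15a1 probe was above background on 1 array of each group and was not tested.

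Each sample was hybridised to 1 single-colour array of 1 slide, with 46.9% to 49.8% of spots well above background and none saturated. Levels below are log2 signals from which each array's 75th percentile was subtracted, and differences are macroH2A1.1 siRNA minus control siRNA on that log2 scale. Levels of different probes cannot be set against each other. The probe that stands for Macroh2a1, the targeted gene, lay between 1.5 and 1.62 (log2 level) in the control samples and between 0.38 and 0.78 with macroH2A1.1 siRNA, which left 50.5% of the control signal (limma adjusted p = 0.039, or 0.013 with the block described next). Whether this probe separates the splice forms was not tested. Samples of the same replicate number deviated together, so each result is given from limma without pairing and, where it differs, with the replicate number as a block. "Rose" and "fell" refer to the fit with this block at an adjusted p under 0.05. Interferon response genes moved with the groups and did so most in replicates 2 and 3 of macroH2A1.1 siRNA: the summed signal of the 9 measured of 10 such markers was 3.12 to 6.45 times the 75th percentile in controls and 8.97, 78.6, 55.4 and 5.04 times with macroH2A1.1 siRNA in replicates 1 to 4. Their part in the results below was not tested.

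Collagen genes were lower on balance with macroH2A1.1 siRNA. Of the 29 measured, 23 had a difference below 0 and 6 above, with a median of -0.31 (log2 difference), against a median of 0.00 over all 13580 genes. In limma without pairing, 0 of the 29 passed (0.0221% of all genes did in either direction, and 0.0147% were lower), and 12 had an unadjusted p under 0.05 (12.2% of all genes). With the replicate block, 9 fell and 2 rose, where 3.98% and 4.26% of all genes did so (8.24% in either direction). The 9 were Col1a2, Col5a1, Col4a1, Col4a2, Col18a1, Col8a1, Col8a2, Col16a1 and Col22a1, and the 2 were Col14a1 and Col23a1. The groups did not overlap, with macroH2A1.1 siRNA lower, for 6 of the 29 (3.72% of all genes), and for 0 with macroH2A1.1 siRNA higher (4.30%). Within pairs, 17 were lower in all 4 pairs (18.2% of all genes) and 4 were higher in all 4 (19.6%). The median over the family was lower in every pair, at -0.28, -0.46, -0.36 and -0.20 (log2 difference) in pairs 1 to 4. These counts lean in part on the filter. Col8a2 and Col22a1, which fell and had no overlap, passed it only through the controls. So did Col11a2 and Col9a1, which had differences below 0. Such a filter favours a difference below 0, and for Col25a1, kept only through macroH2A1.1 siRNA, the reverse holds. With the filter on all 8 arrays, the median of the 24 collagen genes left was -0.31.

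The count with the block changed when single pairs were left out, for the collagens as for all genes. Each such fit has fewer samples, and the cause was not tested. Leaving out pair 1 or pair 3 gave 0 collagen genes (0.0% of all genes in both fits), leaving out pair 2 gave 1 (1.03%) and leaving out pair 4 gave 8 (4.71%). With probes near background kept, 0 of the 43 collagen genes passed with the block (0.0% of all genes). In each of these settings all 11 genes kept their direction. By array, the median deviation of the 29 genes from their own means was 0.22, 0.30, 0.22 and -0.07 (log2) in control replicates 1 to 4, and -0.01, -0.12, -0.17 and -0.22 with macroH2A1.1 siRNA. Control replicate 4 thus lay within the macroH2A1.1 siRNA arrays and the other controls above them. Without it the family median was -0.38 (log2 difference).

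**Figure D1:**
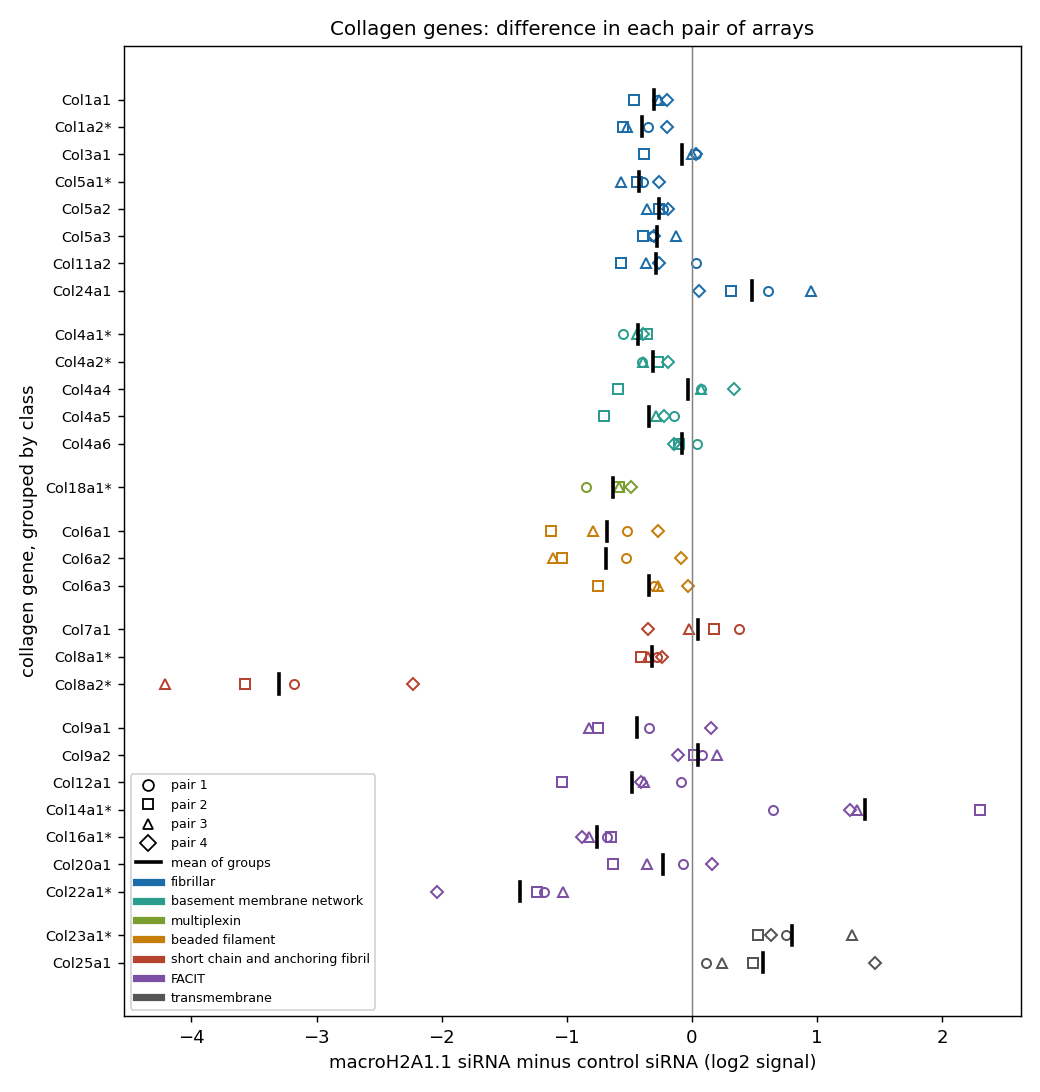
Difference between the macroH2A1.1 siRNA and the control siRNA array of the same replicate number (log2 signal, x axis) for the 29 measured collagen genes (y axis), grouped and coloured by class. Symbols are the 4 pairs, black bars the difference of group means, and asterisks genes that passed with the replicate block; 23 of 29 bars lie left of 0 and Col8a2 lies farthest left.

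Among fibrillar chains, 7 of the 8 measured had differences below 0, and 2 fell. Col1a2, the second chain of type I collagen, read 8.37, 8.54, 8.41 and 7.91 (log2 level) in control replicates 1 to 4 and 8.02, 7.99, 7.89 and 7.72 with macroH2A1.1 siRNA. Control replicate 4 was the lowest control and overlapped the macroH2A1.1 siRNA samples, although each pair was lower with the siRNA. The log2 difference was -0.40 (block SE 0.08, limma adjusted p = 0.317 unpaired, 0.044 with the block), which is 75.5% of the control signal. Col5a1, whose product helps start fibrils and limits their width, read 6.15, 6.03, 5.93 and 5.45 in controls and 5.76, 5.58, 5.36 and 5.19 (log2 level) with macroH2A1.1 siRNA. It fell by 0.42 (log2 difference, block SE 0.07, limma adjusted p = 0.406 unpaired, 0.033 with the block), and again the groups overlapped only through control replicate 4.

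The partners of these chains were lower in all 4 pairs but did not pass. Col1a1, the main chain of type I collagen, had a log2 difference of -0.30 (limma adjusted p = 0.053 with the block), Col5a2 of -0.26 (adjusted p = 0.056 with the block) and Col5a3 of -0.28 (adjusted p = 0.060 with the block). In each of the 3, the lowest or next-lowest control level was that of replicate 4. Col3a1, which forms fine fibres with type I, stood at 8.34, 8.52, 8.77 and 8.4 (log2 level) in controls and 8.36, 8.14, 8.77 and 8.43 with macroH2A1.1 siRNA. Its groups overlapped almost fully, the log2 difference was -0.08 (SE 0.15, limma adjusted p = 0.906 unpaired, 0.597 with the block), and its sign turned when macroH2A1.1 siRNA replicate 2 was left out (0.01). Col24a1, a fibrillar chain of bone and cornea, had the one difference above 0 of the class, at 0.48 (limma adjusted p = 0.109 with the block), and Col11a2 read -0.29 with 3 macroH2A1.1 siRNA arrays above background.

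**Figure D2:**
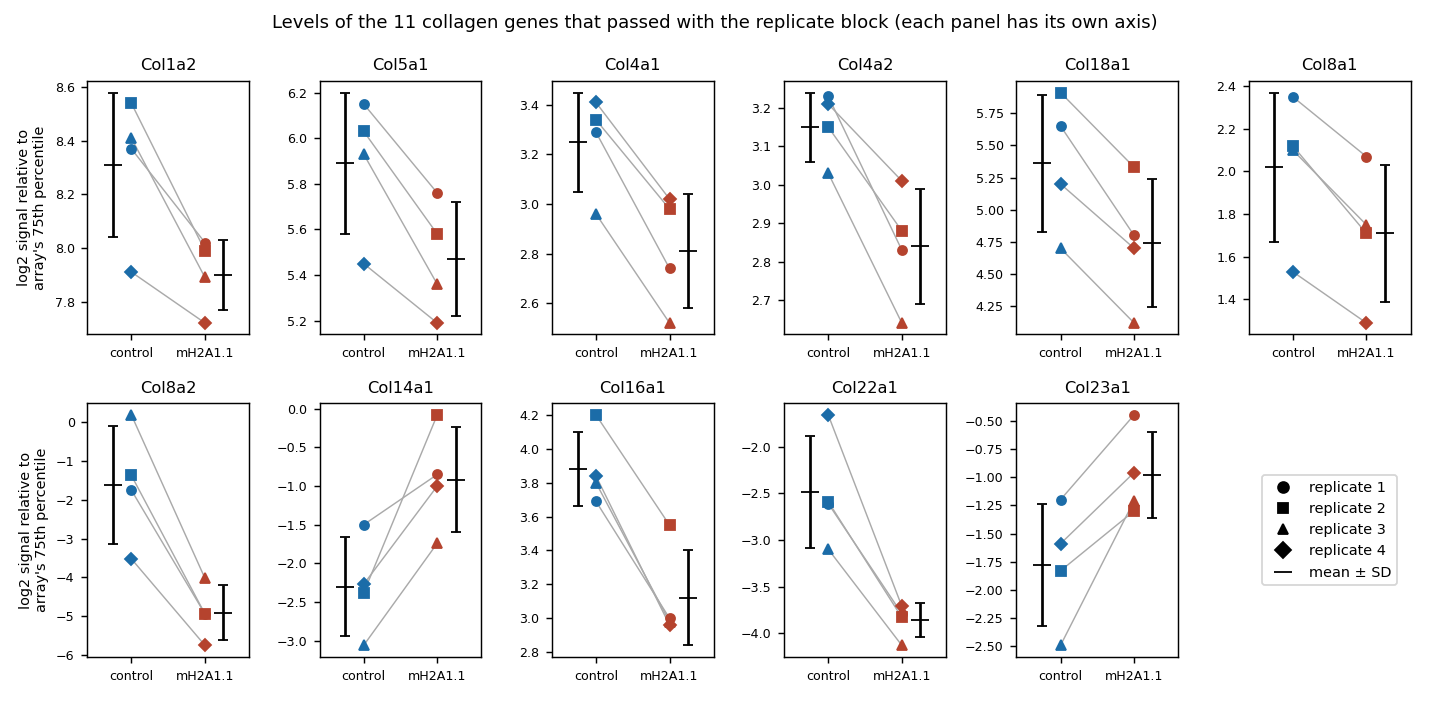
Log2 signal above or below the 75th percentile of its array (y axis, a separate scale in each panel) in the control siRNA and macroH2A1.1 siRNA samples for the 11 collagen genes that passed with the replicate block. Grey lines join samples of the same replicate number and bars are mean ± SD (n = 4); every line goes down except in the panels of Col14a1 and Col23a1, where every line goes up.

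Both main chains of the basement membrane network fell. Col4a1 read 3.29, 3.34, 2.96 and 3.41 (log2 level) in controls and 2.74, 2.98, 2.52 and 3.02 with macroH2A1.1 siRNA. Only control replicate 3 reached into the range of the other group. This is a log2 difference of -0.43 (block SE 0.06, limma adjusted p = 0.285 unpaired, 0.023 with the block), or 74.0% of the control signal. The array carries 10 spots of this probe, whose log2 signal varied within an array with an SD of 0.026 to 0.063; between samples of a group the SD was 0.20 and 0.23. Col4a2, its partner in the heterotrimer, read 3.23, 3.15, 3.03 and 3.21 in controls and 2.83, 2.88, 2.64 and 3.01 (log2 level) with macroH2A1.1 siRNA. These groups did not overlap, and the log2 difference was -0.31 (block SE 0.06, limma adjusted p = 0.275 unpaired, 0.046 with the block). Among the minor chains, Col4a5 was lower in all 4 pairs at -0.34 without passing (limma adjusted p = 0.109 with the block), and Col4a6 read -0.08. Col4a4 read -0.03 by 1 probe and 0.39 by the other, so it has no direction.

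Col4a1 and Col4a2 lie head to head on mouse chromosome 8. In the RefSeq promoter table (GRCm38.p6) their listed start sites are 11312826 on the minus strand and 11312805 on the plus strand. The listed transcripts thus overlap over 22 bases, which lie downstream of both start sites and not before them. The stretch is shown because both genes share it. Capitals mark a match to the GC box (GGGCGG, plus strand), which is no evidence of binding, and a part in the differences was not tested.
Col4a1 and Col4a2, chr8:11312805-11312826: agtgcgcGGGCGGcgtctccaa

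Col18a1, a multiplexin of basement membranes whose C-terminal fragment is endostatin, fell by 0.63 (log2 difference, block SE 0.08, limma adjusted p = 0.481 unpaired, 0.018 with the block). Its levels were 5.65, 5.91, 4.70 and 5.20 (log2) in controls and 4.80, 5.33, 4.12 and 4.70 with macroH2A1.1 siRNA. The groups overlapped widely, with replicate 2 highest and replicate 3 lowest in both, while each pair differed by -0.85, -0.58, -0.58 and -0.49 (log2).

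The type VI chains Col6a1, Col6a2 and Col6a3, which assemble into 1 heterotrimer in the matrix around muscle fibres, were lower in all 4 pairs, but none passed the test with the chosen probes. Col6a1 read 6.56, 7.24, 7.15 and 6.49 (log2 level) in controls and 6.04, 6.11, 6.35 and 6.22 with macroH2A1.1 siRNA, without overlap. The log2 difference was -0.68 (block SE 0.14), 62.5% of the control signal, with limma adjusted p = 0.226 unpaired and 0.050 with the block, which missed the threshold narrowly, and 5 of 11 other settings of the block fit passed (adjusted p from 0.013 to 0.161). Col6a2 read 3.82, 4.38, 4.51 and 3.70 in controls and 3.29, 3.34, 3.40 and 3.62 (log2 level) with macroH2A1.1 siRNA, also without overlap. Its log2 difference was -0.69 (block SE 0.18, limma adjusted p = 0.228 unpaired, 0.077 with the block), with pair 4 at -0.09 against -0.53, -1.04 and -1.11 in pairs 1 to 3. A second Col6a2 probe had a log2 difference of -0.95 and passed when each probe was tested alone (limma adjusted p = 0.040 with the block). Col6a3 read -0.34 (limma adjusted p = 0.148 with the block) with overlapping groups, and in pair 4 it differed by -0.03.

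Col8a2, a short network-forming chain known from the cornea, showed the largest difference of the 29 genes. It read -1.75, -1.37, 0.19 and -3.52 (log2 level) in controls and -4.94, -4.94, -4.02 and -5.75 with macroH2A1.1 siRNA. All 4 control arrays but only 1 macroH2A1.1 siRNA array were well above background, and the groups did not overlap. Its log2 difference was -3.30 (block SE 0.31), with limma adjusted p = 0.154 unpaired, 0.013 with the block. The gene passed the filter only through the controls and the other group lies near background, so the size is uncertain: with normexp and with the authors' series values the log2 difference was -1.31. Its other probe was above background on 1 control array and was not tested. Col8a1, the partner chain of Col8a2, fell by 0.32 (log2 difference, block SE 0.06, limma adjusted p = 0.629 unpaired, 0.039 with the block), from 2.35, 2.12, 2.10 and 1.53 to 2.07, 1.71, 1.75 and 1.29 (log2 level), and its groups overlapped. Col7a1, the anchoring fibril chain, read 0.05 (limma adjusted p = 0.823 with the block), and pairs went both ways, from 0.38 in pair 1 to -0.35 in pair 4.

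FACIT chains moved in both directions: of 7 measured, 2 fell, 1 rose and 4 did not pass. Col16a1, which links fibrils and other matrix networks, read 3.69, 4.2, 3.8 and 3.84 (log2 level) in controls and 3.0, 3.55, 2.98 and 2.96 with macroH2A1.1 siRNA. Its groups did not overlap, although replicate 2 was the highest in both. By group means the log2 difference was -0.76 (block SE 0.07, limma adjusted p = 0.155 unpaired, 0.012 with the block), 59.1% of the control signal. Col22a1, a chain of the myotendinous junction, where muscle fibres meet tendon, read -2.61, -2.59, -3.10 and -1.66 in controls and -3.79, -3.83, -4.13 and -3.71 (log2 level) with macroH2A1.1 siRNA. These groups did not overlap either. All 4 control arrays and 3 of the macroH2A1.1 siRNA arrays were above background, so the gene passed the filter only through the controls. Such a filter favours a difference below 0. Col22a1 fell by 1.37 (log2 difference, block SE 0.18, limma adjusted p = 0.139 unpaired, 0.019 with the block), and by 0.50 with normexp.

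Col14a1, a FACIT chain found along tendon and skin fibrils, went the other way. It read -1.50, -2.38, -3.06 and -2.27 (log2 level) in controls and -0.85, -0.08, -1.74 and -1.0 with macroH2A1.1 siRNA, with overlap between control replicate 1 and macroH2A1.1 siRNA replicate 3. The log2 difference was 1.38 (block SE 0.26, limma adjusted p = 0.242 unpaired, 0.039 with the block) and ranged from 0.65 in pair 1 to 2.30 in pair 2. A second Col14a1 probe, which lies upstream on chromosome 15, differed by 0.16 only (limma adjusted p = 0.616 with the block, each probe tested alone), and in that fit the first probe did not pass (adjusted p = 0.053). The rise of Col14a1 therefore rests on 1 of its 2 probes. Col12a1, the FACIT partner of type I fibrils, was lower in all 4 pairs at -0.48 (limma adjusted p = 0.119 with the block), from -0.09 in pair 1 to -1.04 in pair 2. Col9a1 read -0.44 (adjusted p = 0.169 with the block) with 1 macroH2A1.1 siRNA array above background, Col20a1 read -0.23 and Col9a2 read 0.05.

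Both measured transmembrane chains had differences above 0 in all 4 pairs. Col23a1, a membrane-bound collagen that is also shed, read -1.20, -1.83, -2.49 and -1.59 (log2 level) in controls and -0.45, -1.30, -1.21 and -0.96 with macroH2A1.1 siRNA. The groups overlapped through control replicate 1. The log2 difference was 0.80 (block SE 0.13, limma adjusted p = 0.324 unpaired, 0.032 with the block), or 174% of the control signal, and 0.46 with normexp. A second Col23a1 probe had a log2 difference of 0.60 and did not pass (limma adjusted p = 0.127 with the block, each probe tested alone). The mean of both probes, at 0.70, missed the threshold too (adjusted p = 0.058 with the block). Col25a1, a neuronal and muscle chain involved in motor axon entry, read -2.91, -3.89, -3.49 and -4.34 in controls and -2.80, -3.41, -3.26 and -2.88 (log2 level) with macroH2A1.1 siRNA. Its log2 difference of 0.57 did not pass (limma adjusted p = 0.180 with the block), and 3 of its 4 probes were not above background on all arrays of a group. The tested probe passed the filter only through macroH2A1.1 siRNA, with 3 of 4 control arrays above background. Such a filter favours a difference above 0, and the size shrank to 0.15 with normexp and 0.13 with the authors' series values.

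The 14 genes not tested included the cartilage chains Col2a1 and Col10a1 and the epithelial chain Col17a1. Col2a1, Col4a3, Col6a4, Col6a5, Col6a6, Col9a3, Col10a1, Col13a1, Col19a1 and Col28a1 were not well above background on any of the 8 arrays. Col11a1 and Col15a1 reached 1 array of each group, Col17a1 reached 2 control arrays and 1 of macroH2A1.1 siRNA, and Col27a1 reached 1 and 3. No direction is given for these genes.

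Several probes above background existed for 7 genes, and for 6 of them the probes had the same sign. The 3 Col16a1 probes differed by -0.86, -0.80 and -0.76 (log2 difference) and the 2 Col18a1 probes by -0.63 and -0.60. Both genes thus read alike at probes that do not overlap in the genome, though 2 of the Col16a1 probes lie close together. The Col16a1 probes lie at chr4:129756457-129756516, chr4:129776460-129776519 and chr4:129776333-129776392 (mm9, plus strand), and the Col18a1 probes at chr10:76514926-76514985 and chr10:76515790-76515849 (mm9, minus strand). The Col14a1 probes, at chr15:55352264-55352323 and chr15:55347733-55347792 (mm9, plus strand), gave unequal sizes. A further Col16a1 probe was above background on 0 arrays of either group and was not tested. Col4a4 was the gene whose probes had opposite signs. Exon and intron annotation for mm9 was not used here.

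**Figure D3:**
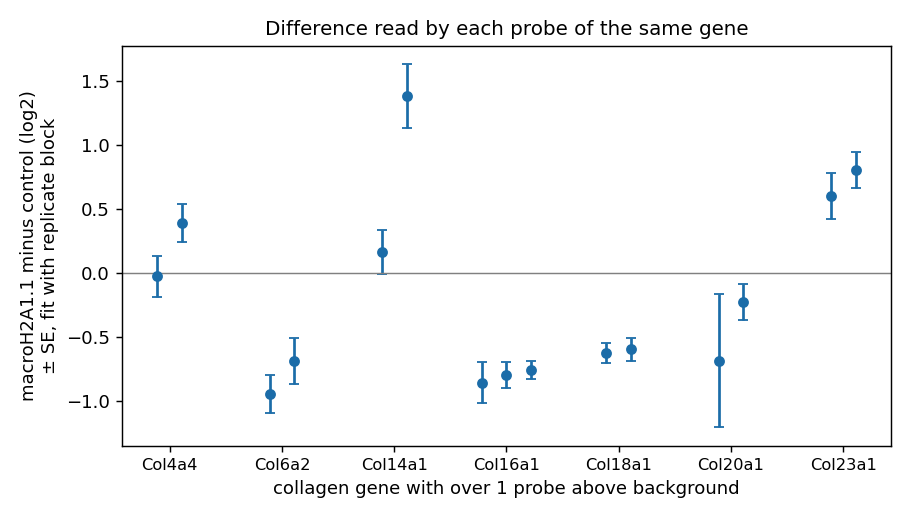
Log2 difference (macroH2A1.1 siRNA minus control siRNA, y axis) for each probe above background of the 7 collagen genes with over 1 such probe (x axis). Points are single probes and bars their SE in the fit with the replicate block; Col16a1 and Col18a1 probes lie together, while the 2 Col14a1 probes read 0.16 and 1.38.

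Chains that share a heterotrimer were compared within each array, to ask whether partners changed by different amounts. Of 7 comparisons, Col8a2 against Col8a1 read -2.98 (log2, SE over pairs 0.39). This value is given without a test, since Col8a2 was near background with macroH2A1.1 siRNA. With normexp Col8a2 read -1.31 and Col8a1 -0.30. Col9a2 against Col9a1 read 0.49 and is also given without a test, since Col9a1 was above background on only 1 macroH2A1.1 siRNA array. For the others an exact permutation test was used (two-sided, 4 against 4), which cannot go below p = 0.0286, or 0.125 within pairs. The Benjamini-Hochberg adjustment took in all 7, also the comparisons of Col8a2 and Col9a1. Col6a3 differed from Col6a1 by 0.34 (exact permutation p = 0.20, adjusted p = 0.28) and Col5a2 from Col5a1 by 0.16 (exact permutation p = 0.0857, adjusted p = 0.267). Col4a2 differed from Col4a1 by 0.12, Col1a2 from Col1a1 by -0.11 and Col6a2 from Col6a1 by -0.01 (exact permutation p = 0.171 to 0.857). None of these passed the adjusted threshold, which with these sample numbers does not show that partners changed alike.

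Promoter sequence was available for 24 of the 29 measured genes, in 27 windows, from the RefSeq table (GRCm38.p6). Both strands of the 250 bases before each start site were searched for 3 motifs, none of which contains another. The GC box, spelled GGGCGG, was in 63.0% of the collagen windows and 32.7% of all 32851 windows. The CCAAT box, spelled as its name, was in 37.0% against 33.8%. The TATA box, spelled TATAAA, was in 7.41% against 12.4%. Of the 9 genes with a window among the 11 that fell or rose, 8 had a GC box, 5 a CCAAT box and 0 a TATA box. These are counts of genes over any of their windows, so they cannot be set against the shares of windows above. The 32851 windows are also not limited to tested genes. No such count was made for the collagens that did not pass, so no link between a motif and the differences is drawn. The last 120 bases before the start site are shown for Col1a2, Col16a1 and Col8a2, as a fibrillar, a FACIT and a short chain that fell, with matches in capitals; a match is no evidence of binding.
Col1a2, chr6:4505498-4505617, plus strand: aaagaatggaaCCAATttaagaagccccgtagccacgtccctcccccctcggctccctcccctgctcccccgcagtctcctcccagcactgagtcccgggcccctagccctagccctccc
Col16a1, chr4:130047720-130047839, plus strand: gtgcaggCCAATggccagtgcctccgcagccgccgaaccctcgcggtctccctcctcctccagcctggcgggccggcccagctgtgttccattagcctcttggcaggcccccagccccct
Col8a2, chr4:126286674-126286793, plus strand: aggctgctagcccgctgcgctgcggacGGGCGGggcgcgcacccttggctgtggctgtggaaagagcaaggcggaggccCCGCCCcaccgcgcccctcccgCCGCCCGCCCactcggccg

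Genes that modify, process or bind collagen were also lower on balance. Over 6 lists with 62 measured genes, 0 passed in limma without pairing, and with the block 14 fell and 1 rose. Over all genes, 3.98% fell, 4.26% rose and 49.9% had a difference below 0, against which the counts of these lists and of the marker lists are to be read. Among enzymes that hydroxylate and glycosylate the chains, all 14 measured of 15 had differences below 0, with a median of -0.24 (log2 difference), and 3 fell. These were the lysyl hydroxylase Plod1 by 0.45 (limma adjusted p = 0.047 with the block), the prolyl 4-hydroxylase subunit P4ha3 by 0.51 (adjusted p = 0.039) and the prolyl 3-hydroxylase P3h2 by 0.76 (adjusted p = 0.027). P3h2 passed the filter only through the controls, with 3 of 4 macroH2A1.1 siRNA arrays above background, and such a filter favours a fall. In folding and export, 8 of 12 were below 0 with a median of -0.07. There the endoplasmic reticulum isomerase Fkbp9 fell by 0.48 (adjusted p = 0.019), and Tmem38b, an ion channel of that compartment, rose by 0.49 (adjusted p = 0.023).

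Of 11 measured genes for processing and crosslinking (13 listed), 9 were below 0 with a median of -0.33 and 3 fell. Adamts14, which removes the N-terminal propeptide, fell by 0.46 (limma adjusted p = 0.034 with the block), and the lysyl oxidases Lox and Loxl4 fell by 0.33 (adjusted p = 0.048) and 0.72 (adjusted p = 0.012). Among 6 measured receptor genes of 10, the collagen-binding integrin chains Itga11 and Itga10 fell by 1.69 (adjusted p = 0.013) and 1.26 (adjusted p = 0.027). Itga10 read 0.76, 1.43, 1.06 and 1.58 (log2 level) in controls and -0.23, -0.46, 0.32 and 0.15 with macroH2A1.1 siRNA, without overlap. In breakdown, 1 of 6 measured genes of 12 fell, the gelatinase Mmp2 by 0.59 (adjusted p = 0.034). On the list of the TGF-beta pathway, a known inducer of collagen expression, and its targets, 13 genes were measured with a median of -0.10. Among those that fell were Tgfb1, which fell by 0.48, Smad7 by 0.72 and Tgfbi by 0.57 (limma adjusted p = 0.012 to 0.038 with the block). The count of 15 was 0 without pair 1 or pair 3, 3 without pair 2 and 7 without pair 4, and 0 when probes near background were kept, in the fits whose shares over all genes are given above.

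**Figure D4:**
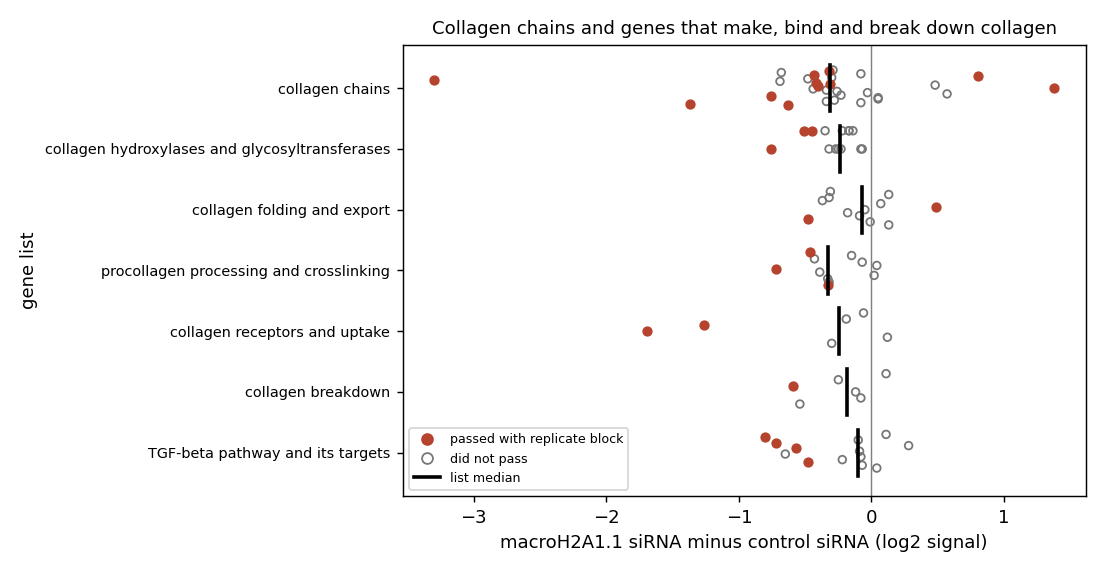
Log2 difference (macroH2A1.1 siRNA minus control siRNA, x axis) for the 29 collagen genes and for the measured genes of 6 lists (y axis). Filled points passed with the replicate block, open points did not, and black bars are list medians; all 7 medians lie below 0, from -0.07 for folding and export to -0.33 for processing and crosslinking.

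Markers of cells that could make collagen did not move one way. Of 12 fibroblast markers 10 were measured, and 4 fell while 1 rose. Log2 differences were -1.40 for Pi16, -1.09 for Dpt, -1.01 for Postn and -0.86 for Pdgfrb, and 2.40 for Fap, which was above background on 3 of 4 control arrays (limma adjusted p = 0.012 to 0.023 with the block). The markers Dcn and Pdgfra, named after their values were seen, read -0.09 and 0.19 and did not pass, and Thy1 and Tcf21 were not measured. The summed signal of the 10 was 406 to 458 times the 75th percentile in controls and 345 to 533 times with macroH2A1.1 siRNA. The largest part of this sum came from 1 probe, that of Dcn. Of the 10, 7 had differences below 0 and the median was -0.17, so the sum does not give the direction of most of these markers. For the 12 myotube markers, of which 8 rose and 0 fell, the sum was 1290 to 1820 times in controls and 1700 to 2560 times with macroH2A1.1 siRNA. It was higher in every pair, from 1810 to 2560, 1290 to 1700, 1820 to 2400 and 1420 to 1790 times in pairs 1 to 4. Still, 2 of the 12 had differences below 0. Myh4, named after its values were seen, was lower in every pair at -1.05 (log2 difference, limma adjusted p = 0.060 with the block). The 6 measured of 8 markers of undifferentiated myoblasts summed to 57.4 to 107.4 times and 67.1 to 129 times, also higher in every pair, with Pax7 and Myf5 not measured. Most of this sum came from 1 probe, that of the cadherin Cdh15, which rose by 0.39 (log2 difference, limma adjusted p = 0.029 with the block). Of the 6 measured, 4 had differences below 0 and the median was -0.26. The sum therefore does not give the direction of most of these markers. Sums for the 8 proliferation markers were 24.7 to 42.6 and 26.0 to 51.8 times, for 5 of 6 macrophage markers 21.6 to 24.3 and 19.1 to 25.6 times, and for 3 of 8 chondrocyte and osteoblast markers 2.54 to 3.1 and 2.26 to 3.18 times. Most of the macrophage sum came from 1 probe, that of Itgam. Of these 5 markers, 3 had differences below 0 and the median was -0.04. Cd68, named after its values were seen, read 1.32 (log2 difference, limma adjusted p = 0.089 with the block). The part of all these marker lists in the collagen differences was not tested. In bulk RNA, fewer cells of a type and less RNA per cell cannot be told apart.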

How the data were processed

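Spot intensity values came from the authors' scans through Feature Extraction 10.7.3.1 (mm9 probe positions), per the file headers; the processed intensity is already background-subtracted. The authors' deposited series values were taken as log2 values processed by the authors in a way the table does not state. The columns tracked log2 median signal (r from 0.9977 to 0.9996 with the array concerned) and each had a median of 6.29; how background was treated in it is unknown. Columns belonging to other series numbered 0.

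Each array's 75th percentile was subtracted from the log2 processed intensity, outlier spots (143 to 236 per array) became missing values, and repeat spots were averaged. The filter kept 24989 of 55681 probes. Genes were named through RefSeq accessions or symbols (GRCm38.p6), and the kept probe with the highest mean stood for its gene. The comparison used limma 3.58.1 in R 4.3.3 without covariates, with a two-sided test, Benjamini-Hochberg adjustment over 13580 genes and a threshold of 0.05; the fits were tested on simulated data. Python 3.11.15, pandas 2.3.3 and matplotlib 3.10.9 made tables and plots.

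Same-numbered samples shared deviations from their group means, with correlations of 0.61, 0.55, 0.66 and 0.41 for replicates 1 to 4. All exceed 0.1, the limit above which numbers were taken to pair samples. Such arrays are also neighbours on the slide, and culture and position cannot be told apart. Alternatives were median centring, quantile normalization, normexp (offset 50), the series values, other filters and probe rules, blocks by replicate, array row or array column, array weights, a trended and robust eBayes step, and fits without single arrays or pairs. The members, lists and rules were chosen with earlier results of these data known. Values were given for collagen genes past the threshold in either fit, the 2 with the largest difference in each class, and genes whose probes differed in sign; from each other list, at most 4 genes past the threshold, except that all 5 fibroblast markers past it are given. Other members were named to account for every tested gene. The values of 1 gene on these lists are not reported here.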

Additional observations from a re-analysis of the deposited data

Results flagged for a closer look

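Among 58 groups of 4 samples checked (29 genes in 2 groups), 3 held a sample set apart by more than the 95% limit of Dixon's test, where chance gives about 1 in 20. Col16a1 read 3.55 (log2 level) in macroH2A1.1 siRNA replicate 2, above the other 3 samples at 2.96 to 3.0. Col1a1 read 6.38 in macroH2A1.1 siRNA replicate 4, below the others at 6.98 to 7.02. Col5a2 read 2.28 in control replicate 4, below the others at 2.75 to 2.8.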

How the results depend on the processing

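The median difference of the collagen genes kept its direction under every alternative run. It went from -0.23 with no filter, which kept 43 genes, to -0.35 without pair 4 in the block fit. When single arrays were left out it went from -0.26 to -0.38. Unpaired, 0 collagen and 0 pathway genes passed under each alternative run. With the replicate block, 11 collagen and 15 pathway genes passed. The block fit gave 11 and 13 with median centring, 13 and 15 with quantile normalization, 17 and 23 with normexp and also with the authors' series values, 12 and 16 with the filter on all 8 arrays, 10 and 16 with the mean of probes, and 0 and 0 with no filter. The share of all genes passing moved with these counts: 8.24% with the block, then 5.93%, 7.76%, 13.3%, 12.6%, 10.5%, 7.03% and 0.0% in that order. With each probe tested alone, 9 collagen probes of 37 and 11 pathway probes passed in limma with the block. For this fit no share over all probes and no total of pathway probes is given. These counts therefore cannot be set against a baseline. Col1a2 (adjusted p = 0.067), Col5a1 (0.052), Col4a2 (0.074), Col8a1 (0.066) and Col14a1 (0.053) lost their call in this limma fit with the block. Leaving out pairs 1 to 4 in turn gave 0, 1, 0 and 8 collagen genes and 0, 3, 0 and 7 pathway genes. The cause was not tested, though each such fit has fewer samples. Only genes that never passed changed sign. Col4a4 read 0.18 with the mean of probes in both fits, 0.21 with array weights, 0.16 in the block fit without pair 2, and -0.22 to 0.13 without single arrays. Col3a1 read 0.02 with array weights and in the block fit without pair 2, and -0.19 to 0.01 without single arrays. Col7a1 read -0.20 with array weights, -0.06 in the block fit without pair 1, and -0.25 to 0.32 without single arrays. Col4a6 read 0.005 with the series values in both fits. Col9a2 read -0.0025 in the block fit without pair 3 and -0.07 to 0.17 without single arrays, and Col20a1 -0.45 to 0.04. Signal near background limits Col8a2, Col22a1 and Col14a1, whose sizes shrank to -1.31, -0.50 and 0.79 with normexp.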
